A study of Mus musculus with 201 samples.

Results

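The genes examined here were 52 DNA repair genes, taken by symbol from families of the main repair routes (*Xrcc*, *Rad50* to *Rad54*, *Ercc*, *Fanc*, *Brca*, *Msh*, *Mlh*, *Lig*, *Parp* and *Tdp* genes, with *Ogg1*, *Apex1*, *Atm*, *Atr* and *Topbp1*). All 52 were present in each of the 3 expression tables, which together hold 42983 gene symbols. Single dentate granule cells (DGCs) of the mouse hippocampus, the principal neurons of the dentate gyrus, were profiled by RNA-seq, either as dissociated whole cells or as isolated nuclei. Whole cells and the nuclei of the unfamiliar environment were prepared by Smart-seq2, a full-length protocol, and the home cage nuclei on the Fluidigm C1, a microfluidic capture system. Whole cells came from Prox1-GFP mice, in which the promoter of *Prox1*, a granule cell transcription factor, drives green fluorescent protein. These mice received saline or PTZ, a GABA(A) receptor antagonist that causes seizures, and GFP+ cells were sorted after protease dissociation of hippocampi pooled within a treatment. Nuclei were released by Dounce homogenization from young adult female C57BL/6 mice. Nuclei from a mouse placed in an unfamiliar environment (NE) were sorted as Prox1+/Fos+ (FOS+) or Prox1+/Fos- (FOS-) by antibody staining, and home cage (HC) nuclei from a mouse left undisturbed are labelled NeuN+/Prox1+, from staining read on the chip.

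After the quality filters, 172 of 201 libraries were used, namely 40 FOS+ nuclei, 41 FOS- nuclei, 23 HC nuclei, 38 saline-treated cells and 30 PTZ-treated cells. Each library is a single cell, and the cells of a group came from the same mouse or pool, so each group counted as 1 sample and no test between groups was possible. Shares of cells are given with exact (Clopper-Pearson) 95% intervals, which cover counting error among the sampled cells only. Total expected counts per library ranged from 63775 to 1060516 in NE nuclei, from 107647 to 278779 in HC nuclei and from 67212 to 5129240 in whole cells. *Prox1* was detected in 33 of 40 FOS+ nuclei, 34 of 41 FOS- nuclei, 14 of 23 HC nuclei and every whole cell used. The activity gene *Arc* was detected in 31 of 40 FOS+ nuclei and in 1 of 41 FOS- nuclei. Among the other cell types checked, the oligodendrocyte marker *Mag* was detected in 57.5% of FOS+ and 34.1% of FOS- nuclei, whereas the lineage factor *Olig2* was at 0 in both, and the part of such transcripts in the results was not tested. Of the PTZ-treated cells, 4 stood apart, with 10244 to 12220 genes detected against 3314 to 7437 in the other 26, so the genes called and those named from the nuclei are also given without them in whole cells.

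DNA repair is divided among routes that each recognise a kind of lesion. Base excision repair removes damaged bases and, with PARP1 and XRCC1, seals single-strand breaks, while TDP1 and TDP2 free DNA ends from trapped topoisomerases. Double-strand breaks are rejoined directly by end joining, which works outside the cell cycle, or copied from a sister chromatid by homologous recombination, which belongs to dividing cells. Nucleotide excision repair cuts out bulky lesions, the Fanconi anaemia proteins unhook crosslinks, mismatch repair corrects replication errors, and the kinases ATM and ATR signal damage. Granule neurons are postmitotic, and breaks at the promoters of early response genes have been described in stimulated neurons.

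Many repair genes start next to another gene. In the GENCODE annotation of GRCm38, 16 of 52 had a protein-coding neighbour on the other strand whose start lay within 1000 bases, pointing away, compared with 7.93% of 21951 protein-coding genes. *Atm* (chr9:53439149-53536740, minus strand) starts 307 bases from *Npat*, *Tdp1* (chr12:99884517-99955219, plus strand) starts 78 bases from *Efcab11*, and *Topbp1* (chr9:103305215-103350428, plus strand) is paired in the same way. The bases upstream of *Atm*, *Tdp1* and *Rad52* (chr6:119902698-119922828, plus strand) are shown because these genes had the largest differences between FOS+ and FOS- nuclei. They are from RefSeq promoters on GRCm38, read 5′ to 3′ on the strand of the gene, and stop at the start of the gene and of any coding neighbour. Capitals mark a CCAAT box.
Atm, chr9:53536741-53536921: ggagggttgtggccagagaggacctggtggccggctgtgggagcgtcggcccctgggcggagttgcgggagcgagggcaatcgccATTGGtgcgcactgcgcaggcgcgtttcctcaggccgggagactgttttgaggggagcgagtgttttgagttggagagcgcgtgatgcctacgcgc
Tdp1, chr12:99884440-99884516: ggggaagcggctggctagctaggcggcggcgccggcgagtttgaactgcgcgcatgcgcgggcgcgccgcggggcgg
Rad52, chr6:119902448-119902697: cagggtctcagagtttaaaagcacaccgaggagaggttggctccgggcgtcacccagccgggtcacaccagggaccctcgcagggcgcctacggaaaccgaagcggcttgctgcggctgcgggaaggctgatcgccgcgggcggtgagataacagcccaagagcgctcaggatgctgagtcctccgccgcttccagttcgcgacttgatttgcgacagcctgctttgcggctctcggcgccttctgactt

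The stretch between *Tdp1* and *Efcab11* is 79.2% G and C, that of *Atm* 66.9% and that of *Rad52* 64.0%. Motifs were searched on both strands in the 250 bases before the RefSeq start, for which 43 of 52 repair genes could be matched. The AP-1 site TGANTCA, bound by FOS and JUN dimers, was found in 1 of the 43 promoters (2.33%), that of *Msh4*, and in 6.87% of 27025 promoters of all genes. The CRE TGACGTCA was found in those of *Brca2* and *Rad51c* (4.65%, against 1.62% of all). The E2F letters TTTGGCGC or TTTCGCGC were found in those of *Msh3* and *Topbp1* (4.65%, against 0.673% of all), and CCAAT in 23 (53.5%, against 34.5%). These matches are a description of letters and say nothing about binding.

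Most repair genes were detected somewhere, but in few cells at a time. Detection means a TPM above 1, where TPM is the level of a transcript relative to all transcripts of its cell, corrected for length. Of the 52 genes, 45 were detected in at least 1 FOS+ nucleus, 49 in FOS- nuclei, 36 in HC nuclei, 46 in saline-treated cells and 47 in PTZ-treated cells. A FOS+ nucleus had a median of 17 repair genes detected (range 2 to 26), a FOS- nucleus 17 (range 10 to 30), an HC nucleus 9 (range 5 to 11), a saline-treated cell 14 (range 6 to 23) and a PTZ-treated cell 13 (range 4 to 36). The number followed the number of all genes detected in the same library, with a Spearman correlation of 0.74 in FOS+ nuclei, 0.74 in FOS- nuclei, 0.36 in HC nuclei, 0.80 in saline-treated cells and 0.74 in PTZ-treated cells. Both numbers come from the same library and share its depth. The correlation of the number of repair genes with the total count was lower. It was 0.26 in FOS+ nuclei, 0.28 in FOS- nuclei, -0.12 in HC nuclei, 0.27 in saline-treated cells and 0.40 in PTZ-treated cells. HC nuclei were prepared on another platform and had 3237 ± 371 genes detected (SD over nuclei), against 6185 ± 1398 in FOS+ and 6281 ± 1539 in FOS- nuclei, so their values stand beside the others without a comparison.

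**Figure D1:**
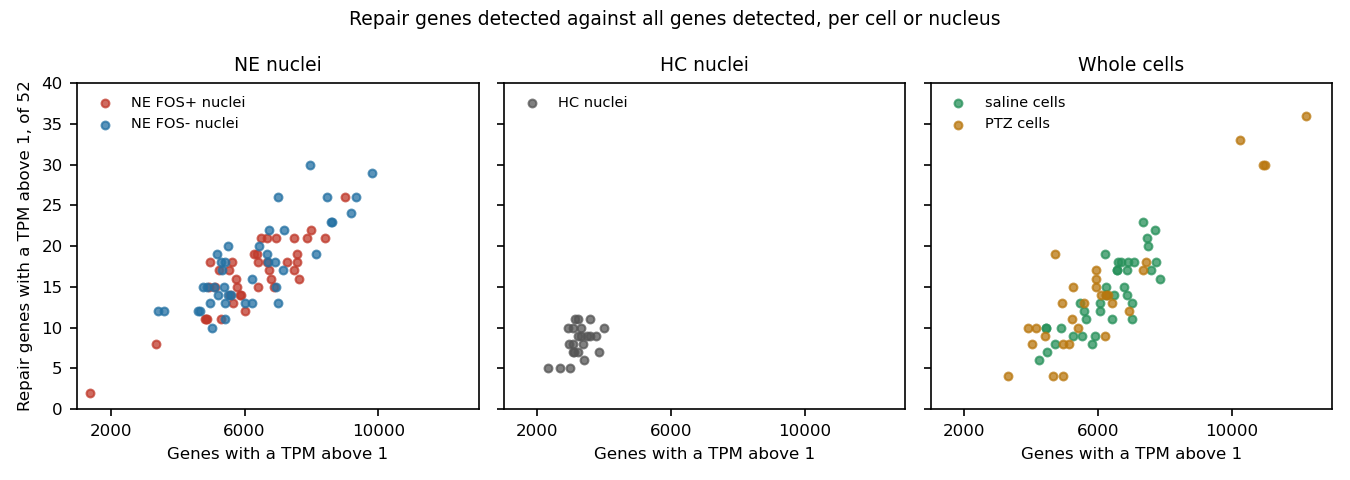
Repair genes detected in each nucleus or cell (vertical axis, of 52) against all genes with a TPM above 1 in it (horizontal axis), with 1 point per library and colours for groups. The 4 PTZ-treated cells with 30 to 36 repair genes are the ones with over 10000 genes in all.

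At the other end, *Brca1* and *Rad51b* were nearly absent, and *Brca2*, *Ogg1*, *Lig1* and *Lig4* were rare in nuclei. Other recombination genes, such as *Xrcc3* and *Rad52*, were detected more widely. *Brca1*, which directs breaks to homologous recombination, had no count in any nucleus or saline-treated cell and was detected in 1 of 30 PTZ-treated cells, at a TPM of 25.3. An upper limit for a share of 0 was taken as 3 divided by the number of nuclei. By it, 0 of 40 FOS+ nuclei allows a share of up to 7.50% (exact upper bound 8.81%), and 0 of 41 FOS- nuclei up to 7.32% (exact upper bound 8.60%). *Rad51b* was at 0 in all 3 tables. *Brca2*, the partner of BRCA1 in recombination, was detected in 1 of 40 FOS+ nuclei, 4 of 41 FOS- nuclei, 1 of 23 HC nuclei, 5 of 38 saline-treated and 3 of 30 PTZ-treated cells. *Ogg1*, the glycosylase for oxidised guanine, was not detected in 40 FOS+ or 23 HC nuclei and was detected in 2 of 41 FOS- nuclei, 2 of 38 saline-treated and 6 of 30 PTZ-treated cells. *Lig1* and *Lig4*, the ligases of replication and of end joining, were likewise not detected in FOS+ nuclei and reached at most 13.3% of the cells of any group.

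**Figure D2:**
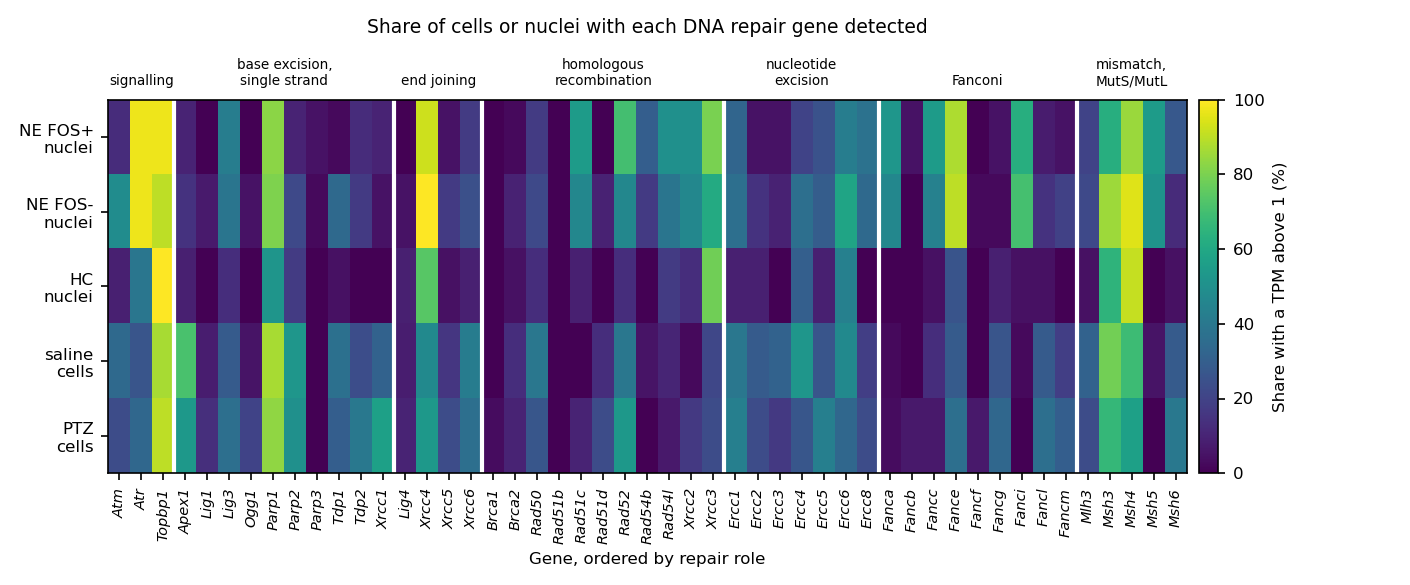
Share of cells or nuclei with a TPM above 1 (colour scale, %) for 49 of the repair genes (columns, by repair role) in the 5 groups (rows). *Atr* and *Topbp1* fill 97.5% of FOS+ nuclei, whereas *Brca1* and *Rad51b* are dark in every row of nuclei.

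*Parp1*, the break sensor that builds poly(ADP-ribose) chains, was the repair gene with the highest mean level in FOS+ nuclei, with a mean TPM of 325 (lowest 0, median 83.1, highest 1696), and in HC nuclei, with 133, ahead of *Apex1* (102), *Atr* (96.7), *Msh3* (78.1) and *Rad52* (65.9). In FOS- nuclei its mean TPM was 208 (lowest 0, median 28.3, highest 1924). It was detected in 33 of 40 FOS+ nuclei, 82.5% (interval from 67.2% to 92.7%), and 33 of 41 FOS- nuclei, 80.5% (interval from 65.1% to 91.2%), so the groups overlapped throughout. A TPM above 100 was reached by 18 of 40 FOS+ and 12 of 41 FOS- nuclei. In whole cells *Parp1* was detected in 33 of 38 saline-treated and 25 of 30 PTZ-treated cells, with mean TPM of 60.3 and 69.6. *Apex1*, the endonuclease that cuts at abasic sites, led in whole cells, with a mean TPM of 173 after saline and 85.3 after PTZ. It was scarce in nuclei, detected in 4 of 40 FOS+, 6 of 41 FOS- and 2 of 23 HC nuclei. Of the 31-base words of its annotated transcripts, 57.1% also occur in transcripts of other genes, and the effect on its values was not tested. Decimals in expected counts, which arise where reads are divided between genes, were present in 4 of 27 saline-treated and 5 of 16 PTZ-treated cells with a count. In nuclei with a count they were present in 2 of 4 FOS+ and 3 of 6 FOS- nuclei. For *Parp1*, decimals were present in 31 of 33 FOS+ and 25 of 33 FOS- nuclei with a count. In whole cells with a count of *Parp1* they were present in 13 of 34 after saline and 4 of 25 after PTZ. The level of *Parp1* in nuclei is therefore uncertain, and the effect of divided reads on it was not tested.

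In FOS+ nuclei the mean TPM of *Parp1* was followed by those of *Rad52*, *Fance*, *Ercc1* and *Atr*. In FOS- nuclei *Topbp1* (209) and *Parp1* led, followed by *Rad52*, *Fance* and *Tdp1*. *Ercc1*, the partner of the nuclease ERCC4, had mean TPM of 53.5 in FOS+ and 45.6 in FOS- nuclei and was detected in 13 of 40 and 15 of 41. Its median TPM was 0 in both groups. In FOS+ nuclei its highest TPM was 1636, and 1 nucleus gave 60.9% of its counts. *Fance*, a subunit of the Fanconi core complex, was detected in 35 of 40 FOS+ nuclei (mean TPM 74.0) and 37 of 41 FOS- nuclei (mean TPM 129). In FOS- nuclei its highest TPM was 1951, and 1 nucleus gave 51.3% of its counts. *Atr*, the kinase for stalled forks and single-stranded DNA, was detected in 39 of 40 and 40 of 41, with mean TPM of 46.7 and 74.5. In *Atr*, *Fance*, *Xrcc4* and *Topbp1* between 94.6% and 100% of the expected counts above 0 in NE nuclei carried decimals, which arise where RSEM divides reads between genes, so a low level of these genes in nearly every nucleus is uncertain. In saline-treated cells *Atr* was detected in 10 of 38 and *Fance* in 11 of 38.

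The comparison of FOS+ with FOS- nuclei of the same NE mouse asked which transcripts differ between granule cells that had or had not made FOS protein. Of the 52 repair genes, 42 had a TPM above 1 in at least 5 of the 81 nuclei and were compared, and the other 10 (*Brca1*, *Fancb*, *Fancf*, *Fancg*, *Lig1*, *Lig4*, *Ogg1*, *Parp3*, *Rad51b* and *Rad51d*) were too rare. A difference of at least 20 percentage points in the share detected was called. *Atm*, *Tdp1* and *Msh3* were detected in more FOS- nuclei (3 of 42, 7.14%, against a background of 3.70% of 16387 genes), and *Rad52* in more FOS+ nuclei (1 of 42, 2.38%, against a background of 4.30%). Counts this small lie close to the background. The median difference over the 42 genes was -4.18 points, FOS+ minus FOS-, with 25 lower and 17 higher in FOS+, and that over all genes -0.854 points. It was not the same in the 4 amplification conditions described further on, at 5 and 3.18 points with the lower spike-in dilution, 0 with 1 µM of TSO and the higher, and -18.2 with 10 µM and the higher.

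**Figure D3:**
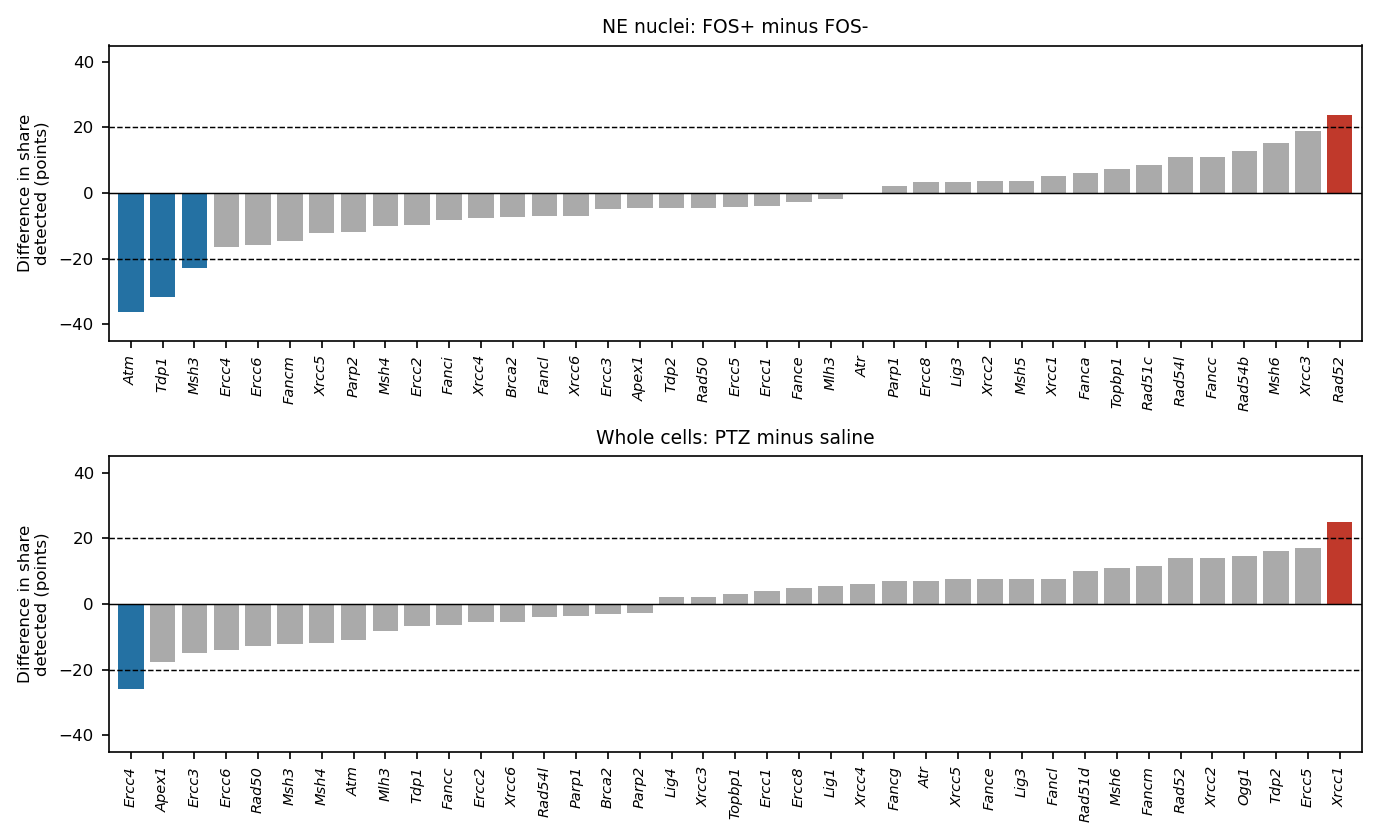
Difference in the share of cells with a TPM above 1 (percentage points, vertical axis) for the compared repair genes reported here, FOS+ minus FOS- nuclei above and PTZ-treated minus saline-treated cells below, with dashed lines at 20 points. *Atm* (-36.3) and *Tdp1* (-31.6) stand farthest out in nuclei, and *Ercc4* (-26.0) and *Xrcc1* (25.1) in whole cells.

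*Atm*, the kinase that answers double-strand breaks, was detected in 5 of 40 FOS+ nuclei, 12.5% (interval from 4.19% to 26.8%), and 20 of 41 FOS- nuclei, 48.8% (interval from 32.9% to 64.9%). Its TPM in FOS+ nuclei ran from 0 through a median of 0 to 63.2, and in FOS- nuclei from 0 through a median of 0.660 to 1510. Mean TPM was 3.70 and 71.8, and mean log2(TPM + 1) was 0.58 ± 1.56 and 2.70 ± 3.14 (SD over nuclei). The groups overlapped, since 21 of 41 FOS- nuclei also lay at or below a TPM of 1, but the 4 nuclei above 100 were all FOS-. Summed over nuclei, 67 counts came from FOS+ and 1215 from FOS- nuclei, with 56.9% of the former and 26.3% of the latter from 1 nucleus each. These are amplified reads without molecular identifiers, so they are not independent molecules.

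*Tdp1*, which releases trapped topoisomerase I from DNA ends, was detected in 1 of 40 FOS+ nuclei, 2.50% (interval from 0.0633% to 13.2%), and 14 of 41 FOS- nuclei, 34.1% (interval from 20.1% to 50.6%). The FOS+ nucleus reached a TPM of 283, while the values in FOS- nuclei ran from 0 through a median of 0 to 1589, with 7 above 100. Mean TPM was 7.08 and 107. The related *Tdp2*, which acts on topoisomerase II, was detected in 5 of 40 FOS+ and 7 of 41 FOS- nuclei. The study itself singled out *Tdp1* and *Topbp1* in these nuclei, so their direction is not independent evidence.

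*Msh3*, which recognises larger loops, was detected in 25 of 40 FOS+ nuclei, 62.5% (interval from 45.8% to 77.3%), and 35 of 41 FOS- nuclei, 85.4% (interval from 70.8% to 94.4%). Its TPM ran from 0 through a median of 10.3 to 345 in FOS+ and from 0 through 23.9 to 487 in FOS- nuclei. A TPM above 100 was reached by 7 of 40 and 7 of 41 nuclei. The difference of -22.9 points fell short of a call at a TPM above 0 (-17.9), at a count of 5 (-16.0) and after thinning to 50000 counts (-18.3).

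*Rad52*, a single-strand annealing factor, went the other way, with detection in 28 of 40 FOS+ nuclei, 70.0% (interval from 53.5% to 83.4%), and 19 of 41 FOS- nuclei, 46.3% (interval from 30.7% to 62.6%). The TPM ran from 0 through a median of 20.3 to 1735 in FOS+ and from 0 through 0 to 4256 in FOS- nuclei. A single FOS- nucleus gave 59.0% of the counts of *Rad52* in that group. Mean TPM was 210 and 153, and the log2 ratio of these means rose from 0.46 to 1.77 once the highest nucleus of each group was left out. The difference of 23.7 points fell short of a call with all nuclei (16.7) and at a count of 5 (13.3). No other of the 9 recombination genes compared was called. *Rad50*, of the complex that binds broken ends, was detected in 7 of 40 FOS+ and 9 of 41 FOS- nuclei.

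*Topbp1*, which activates ATR, was set apart by its high values. It was detected in 39 of 40 FOS+ and 37 of 41 FOS- nuclei, with median TPM of 33.6 and 32.7, yet the highest value was 277 in FOS+ and 1391 in FOS- nuclei. A TPM above 100 was reached by 1 of 40 FOS+ and 11 of 41 FOS- nuclei, and at that limit, chosen after the values were seen, *Topbp1* was the 1 repair gene of 21 called (background 3.05% of 7537 genes higher in FOS-, and 4.29% higher in FOS+, where 0 repair genes were called). *Xrcc4*, the scaffold of end joining, also had its high values in FOS- nuclei, with 0 of 40 FOS+ and 6 of 41 FOS- nuclei above a TPM of 100 and a highest value of 89.6 and 1235. FOS- nuclei with high *Topbp1* were found in each of the 4 amplification conditions described further on. Those with high *Xrcc4* were 4 at 1 µM of TSO and the higher spike-in dilution and 2 at 10 µM and the lower. *Xrcc5* and *Xrcc6*, which encode the Ku proteins of end joining, were detected in 2 and 7 of 40 FOS+ nuclei and in 7 and 10 of 41 FOS- nuclei.

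**Figure D4:**
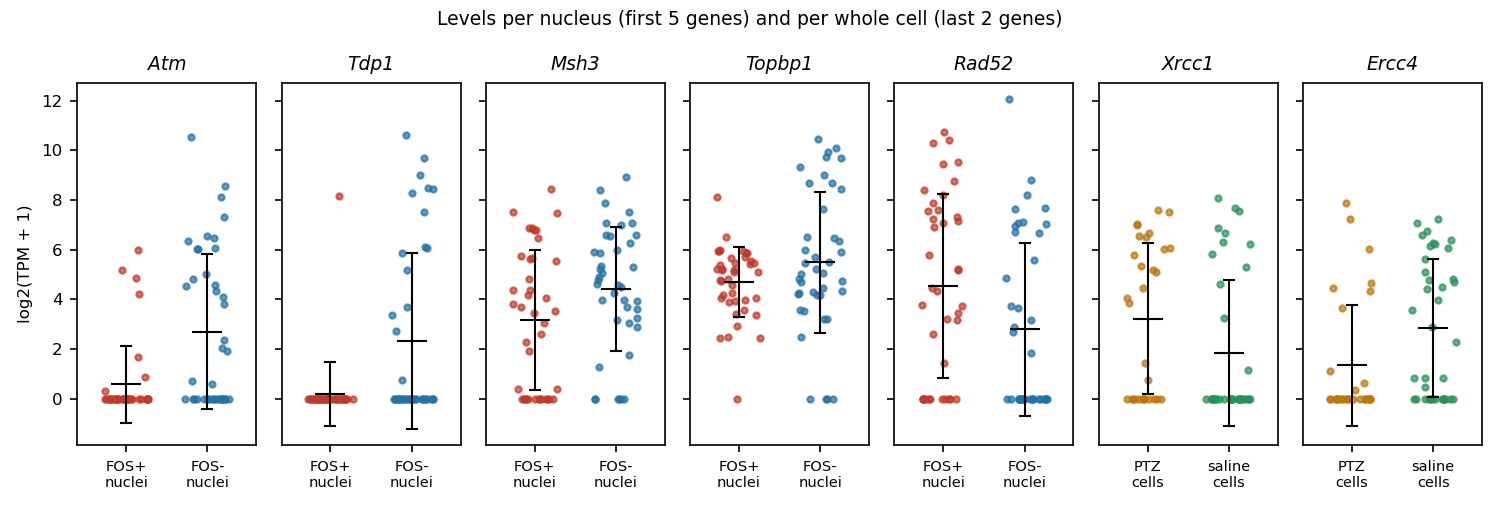
Levels as log2(TPM + 1), with 1 point per nucleus (*Atm*, *Tdp1*, *Msh3*, *Topbp1*, *Rad52*) or whole cell (*Xrcc1*, *Ercc4*) and bars for the mean ± SD over cells. *Tdp1* is above 0 in a single FOS+ nucleus, and the high points of *Topbp1* are FOS- nuclei.

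Detection of *Atm*, *Tdp1* and high *Topbp1* was spread over many FOS- nuclei. *Atm* and *Tdp1* were detected together in 9 FOS- nuclei, *Atm* alone in 11 and *Tdp1* alone in 5. Counting *Topbp1* only above a TPM of 100, 29 of 41 FOS- and 5 of 40 FOS+ nuclei had at least 1 of the 3 genes. The genes were joined after their values were seen, so these counts describe the nuclei and add no evidence.

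The NE nuclei had been amplified under 4 conditions, with the template switch oligonucleotide (TSO) at 1 or 10 µM and the ERCC spike-in mix diluted 200 or 2000 times, and each condition held 8 to 11 nuclei of each sort. *Atm* was detected in more FOS- nuclei in all 4. At 1 µM the counts were 0 of 10 FOS+ and 2 of 10 FOS- at the lower dilution and 1 of 8 and 4 of 10 at the higher. At 10 µM they were 3 of 11 and 7 of 10, and 1 of 11 and 7 of 11. *Tdp1* also kept its direction in all 4, with 1, 2, 5 and 6 FOS- nuclei in the same order and its 1 FOS+ nucleus in the last. *Rad52* was higher in FOS+ nuclei in all 4, by 9.09 to 41.8 points. *Msh3* was lower in FOS+ nuclei in 3 conditions, by up to 65.0 points at 1 µM and the higher dilution, and higher by 11.8 points at 10 µM and the lower dilution.

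**Figure D5:**
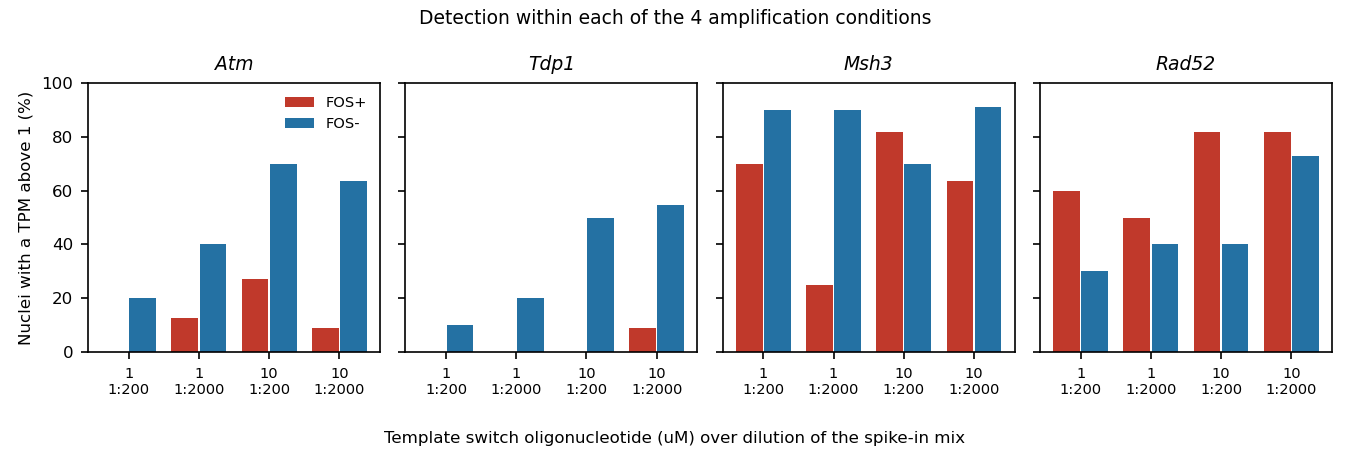
Share of FOS+ and FOS- nuclei with a TPM above 1 (vertical axis, %) in each amplification condition (horizontal axis, µM of TSO above the spike-in dilution) for 4 genes. *Atm* and *Tdp1* are higher in FOS- nuclei in each condition and *Rad52* in FOS+ nuclei, while *Msh3* reverses in 1.

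By role, the genes of most routes lay on both sides of 0, and no test was made of a route. Of the base excision and single-strand break genes, 7 of 10 were compared and 1 (*Tdp1*) was called, with a median difference of -4.57 points. Homologous recombination had 9 of 12 compared, 1 called (*Rad52*) and a median of 8.66 points, with 7 higher and 2 lower in FOS+. End joining had 3 of 4 compared and none called, and all 3 were lower in FOS+, by -12.1 to -6.89 points. All 7 nucleotide excision genes were compared with none called, 6 lower in FOS+ and a median of -4.76 points, and *Ercc6*, the transcription-coupled repair ATPase, was detected in 17 of 40 FOS+ and 24 of 41 FOS- nuclei. The Fanconi genes had 6 of 9 compared, none called and a median of -4.94 points, where *Fancl*, the ubiquitin ligase of the pathway, was detected in 3 of 40 and 6 of 41 nuclei. The MutS and MutL genes had all 7 compared, *Msh3* called and a median of -1.95 points, and the 3 signalling genes had *Atm* called and a median of -0.0610 points.

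Another 95 genes outside these families came from lists of the same repair routes, of damage-induced p53 targets and of topoisomerases. In nuclei 74 of them were compared, of which 2 (2.70%) were called higher and 1 (1.35%) lower in FOS+. The background was 4.30% and 3.70%, and the median difference of the 74 genes was -1.10 points. *Rpa1*, of the single-stranded DNA binding complex, was detected in 17 of 40 FOS+ and 3 of 41 FOS- nuclei, with mean TPM of 141 and 3.04. *Ddb1*, of the ultraviolet damage sensor and a ubiquitin ligase, was detected in 16 of 40 and 8 of 41. *Parg*, which removes poly(ADP-ribose), was detected in 7.50% of FOS+ and 29.3% of FOS- nuclei. None of the 7 compared p53 targets was called.

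The remaining members ranged from genes detected in most NE nuclei, such as *Msh4* and *Xrcc3*, to genes near 0. In base excision repair, *Parp2*, the second DNA-dependent PARP, was detected in 4 of 40 FOS+ and 9 of 41 FOS- nuclei and in 20 of 38 saline-treated and 15 of 30 PTZ-treated cells, where its mean TPM was 37.1 and 33.1. *Lig3*, the ligase bound by XRCC1, was detected in 17 of 40 FOS+ and 16 of 41 FOS- nuclei and in 11 of 38 and 11 of 30 whole cells. *Parp3* had no count in whole cells or HC nuclei and did not exceed a TPM of 8.82 in NE nuclei. Among the accessory genes of strand exchange, *Xrcc3* was detected in 32 of 40 FOS+ and 25 of 41 FOS- nuclei, *Rad51c* in 22 and 19, and *Xrcc2* in 20 and 19. Their mean TPM was 14.6 and 23.1 for *Xrcc3* and at most 2.85 for the other genes, and the decimals described above were frequent in all 3 genes. *Rad51d* was detected in 0 of 40 and 4 of 41 nuclei and in 5 of 38 saline-treated and 7 of 30 PTZ-treated cells. The motor proteins *Rad54l* and *Rad54b* were detected in 20 and 12 of 40 FOS+ nuclei and in 16 and 7 of 41 FOS- nuclei.

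In nucleotide excision repair, the helicases of transcription factor IIH, *Ercc2* and *Ercc3*, were each detected in 2 of 40 FOS+ nuclei, and in 6 and 4 of 41 FOS- nuclei. In whole cells they were detected in 11 and 12 of 38 after saline and in 7 and 5 of 30 after PTZ. *Ercc5*, the nuclease on the 3′ side of a lesion, was detected in 10 of 40 and 12 of 41 nuclei, and *Ercc8*, of the complex that marks stalled polymerase, in 15 of 40 and 14 of 41. In the Fanconi pathway, *Fanca* (21 of 40 and 19 of 41 nuclei) and *Fanci* (25 of 40 and 29 of 41) were seen in NE nuclei but in at most 1 cell of each whole-cell group, and 84.6% to 100% of their counts above 0 in NE nuclei carried decimals, whereas *Fancg* showed the reverse, with 2 of 40 and 1 of 41 nuclei against 10 of 38 and 10 of 30 cells. *Fancc* was detected in 22 of 40 and 18 of 41 nuclei, and *Fancm*, the fork-binding translocase, in 2 of 40 and 8 of 41. *Fancb* and *Fancf* were each detected in at most 2 cells of any group. Of the MutS and MutL genes, *Msh4*, known from meiosis, was detected in 34 of 40 and 39 of 41 nuclei with median TPM of 18.6 and 25.8, though 94.1% and 94.9% of its counts above 0 carried decimals. Its meiotic partner *Msh5* was detected in 22 of 40 and 21 of 41, *Msh6* in 11 of 40 and 5 of 41, and *Mlh3* in 8 of 40 and 9 of 41.

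In HC nuclei, which were not sorted by FOS, *Topbp1* was detected in all 23, *Msh4* in 21, *Xrcc3* in 18 and *Xrcc4* in 17. Among nuclei with a count, decimals were present in 23 of 23 for *Topbp1* and 21 of 21 for *Msh4*. They were present in 16 of 18 for *Xrcc3* and 8 of 17 for *Xrcc4*, so detection of these genes at a low level is uncertain here too. *Atm* was detected in 2 of 23 and *Tdp1* in 1 of 23. *Rad52* was detected in 3 of 23, with 96.1% of its counts in 1 nucleus, and *Apex1* in 2 of 23, with 98.3% in 1.

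The comparison of PTZ-treated with saline-treated whole cells asked what seizures add. Here 41 of the 52 repair genes were compared, and *Brca1*, *Fanca*, *Fancb*, *Fancf*, *Fanci*, *Msh5*, *Parp3*, *Rad51b*, *Rad51c* and *Rad54b* were among those too rare. *Xrcc1* was called higher after PTZ (1 of 41, 2.44%, against a background of 3.29% of 13748 genes) and *Ercc4* higher after saline (1 of 41, 2.44%, against a background of 4.59%). The median difference was 2.28 points, PTZ minus saline, against -0.877 over all genes, with 22 repair genes higher and 19 lower. The library names carry one suffix for every PTZ-treated cell and another for every saline-treated cell. What the suffix marks is not stated, and it and the treatment cannot be told apart.

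*Xrcc1*, the scaffold of single-strand break repair, was present in 17 of 30 cells after PTZ, 56.7% (interval from 37.4% to 74.5%), and 12 of 38 saline-treated cells, 31.6% (interval from 17.5% to 48.7%). Its TPM ran from 0 through a median of 14.5 to 195 after PTZ and from 0 through 0 to 270 after saline, with means of 42.1 and 30.7, so the groups overlapped. *Ercc4*, a nuclease of nucleotide excision and crosslink repair, was present in 8 of 30 cells after PTZ, 26.7% (interval from 12.3% to 45.9%), and 20 of 38 saline-treated cells, 52.6% (interval from 35.8% to 69%). Its TPM ran from 0 through a median of 0 to 234 after PTZ and from 0 through 5.12 to 150 after saline. *Apex1* had a median TPM of 44.9 after PTZ and 149 after saline and was detected in 16 of 30 and 27 of 38 cells.

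The call of *Xrcc1* rested on the 4 PTZ-treated cells with over 10000 genes detected, and that of *Ercc4* did not. Their total counts were 2150060 to 5129240, and *Xrcc1*, *Ercc4* and *Apex1* were detected in each of them. Without them *Xrcc1* was detected in 13 of 26 PTZ-treated cells, 18.4 points above saline and short of a call. *Ercc4* was then detected in 4 of 26, 37.2 points below saline (-37.2). Genes including *Ercc4*, *Apex1*, *Ercc3*, *Ercc6*, *Mlh3* and *Rad50* were called higher after saline, 7 of 40 compared, against a background of 11.8% of 13146 genes, and 0 were called higher after PTZ, against 1.22%. All genes shifted in that setting, to a median of -5.87 points, and the repair genes to -3.85. The granule cell markers of the 4 cells summed to a TPM of 1854 to 2269, within the range of 95.7 to 2763 in the other PTZ-treated cells, and the microglial markers were at 0 in all 4. Their astrocyte markers summed to 34.8, 6.18, 27.3 and 0 (median of the other PTZ-treated cells 0, highest 11989), their oligodendrocyte markers to 33.5 to 67.7 (median 25.1, highest 234) and their activity genes to 512 to 6696 (median 15.3, highest 17669). Whether these libraries hold more than 1 cell was not tested.

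The genes called in nuclei were not called in whole cells, where 3.29% of all genes were called higher and 4.59% lower after PTZ. With so few genes called, this absence says nothing particular about these genes. *Atm* was detected in 7 of 30 PTZ-treated and 13 of 38 saline-treated cells, *Tdp1* in 9 of 30 and 14 of 38, *Msh3* in 20 of 30 and 30 of 38, and *Rad52* in 16 of 30 and 15 of 38. Without the 4 cells of over 10000 genes the counts after PTZ were 5 of 26 for *Atm*, 6 for *Tdp1*, 16 for *Msh3*, 12 for *Rad52* and 23 for *Topbp1*. None of these genes was called there, against a background of 1.22% higher and 11.8% lower after PTZ. Mean TPM of *Rad52* was 60.8 after PTZ and 54.8 after saline, and that of *Ercc1*, detected in 13 of 30 and 15 of 38, was 45.3 and 52.7. *Topbp1* was detected in 27 of 30 and 33 of 38, with 1 and 0 cells above a TPM of 100. Its counts above 0 carried decimals in 29 of 30 PTZ-treated and 36 of 37 saline-treated cells. The whole cells do not match the nuclei in activity, since *Fos* was detected in 26 of 30 PTZ-treated and 30 of 38 saline-treated cells, and in 12 of 40 FOS+ nuclei. The 2 assays were normalized apart and differed in read length and input, so no test was made between them.

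Among the other 95 genes of the repair, p53 target and topoisomerase lists, 79 were compared in whole cells. Of these, 2 (2.53%) were called higher and 4 (5.06%) lower after PTZ, against a background of 3.29% and 4.59%. *Rad9a*, of the checkpoint clamp, was detected in 26.7% of PTZ-treated and 2.63% of saline-treated cells, and *Zmat3*, a p53 target, in 40% and 18.4%. *Mbd4* and *Neil3*, both glycosylases, were detected in 46.7% and 46.7% of PTZ-treated and in 78.9% and 76.3% of saline-treated cells. *Pcna*, the sliding clamp of replication, and *Polq*, a polymerase of end joining, were lower by the same rule, each by 20.9 points (-20.9). Without the 4 cells, 75 of these genes were compared, 1 called higher and 8 lower, against a background of 1.22% and 11.8%. *Rad9a* was then at 23.1%, *Zmat3* at 30.8% and no longer called, and *Mbd4*, *Neil3*, *Pcna* and *Polq* remained lower, by -40.5 to -22.7 points.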

How the data were processed

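The authors trimmed reads, aligned them with RSEM and Bowtie 1.0.0 to the mouse genome (mm10) and deposited, for each of 3 sets of libraries, a table of expected counts without normalization and a table of TPM values scaled within each cell. The deposited expected counts are not always whole, because RSEM can split a read among genes. Libraries were kept with a total expected count over 50000 and genes with a TPM above 1 over the mean minus 2 SD of their table, except that all 23 HC nuclei were kept. No 2 columns of a table were identical, each library has its own column, and doublets were not called. Depth per library sets the precision: a gene at 0 in a shallow library may be present.

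Groups followed the labels. Detection was a TPM above 1, genes were compared where at least 5 cells of both groups together detected them, and a difference of 20 percentage points was called, for all genes alike. The labels name no animal per cell, so no p-value was computed. The paper pooled animals within a treatment, and the series text speaks of a mouse. Levels used log2(TPM + 1). Detection or levels were given by name for the genes called, the 5 highest mean TPM per group, *Topbp1*, *Tdp1* and a core set, and the other members mostly by counts. Some members count in the totals but are not reported here. The calculations were tested on simulated data. The members and lists were chosen with earlier results of these data known. Calculations used Python 3.11.15, pandas 2.3.3, numpy 2.4.6 and scipy 1.17.1. Positions are from GENCODE M21 by symbol. Alternatives were other detection limits, thinning to 50000 counts, other filters and other calls, and those with a TPM above 100, without decimals and without the cells of extreme gene number were chosen after seeing the data.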

Additional observations from a re-analysis of the deposited data

How the results depend on the processing

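No paired analysis was possible because the replicate numbers were given in accession order and pair no cells, and no test was made. *Atm* and *Tdp1* were called higher in FOS- nuclei under every other detection limit, filter and call tried except a TPM above 100, where 1 gene was called (*Topbp1*) and *Msh3* turned to 0.427 points. *Msh3* was also not called at a TPM above 0, at a count of 5, after thinning, at 30 points and at 2-fold. In *Msh3* and *Rad52* most expected counts above 0 carried decimals. The setting without genes with decimal counts therefore left both genes out beforehand and cannot test their calls. The count higher in FOS+ was 2 at a TPM above 0 (*Msh6*, *Rad52*), at a TPM above 5 (*Fancc*, *Rad52*), at 1 count without thinning, at 2-fold in mean TPM (*Fancc*, *Msh6*) and without the 1 FOS+ nucleus of under 3000 genes (*Xrcc3*, *Rad52*). It was 1 at a count of 5, but there the gene was *Parp1* and not *Rad52*, and *Rad52* was also not called at 2-fold. It was 0 with all nuclei, at a TPM above 100 and at 30 points (background 0.995%, and 0.470% higher in FOS-). It was also 0 without genes with decimal counts, where *Rad52* was not among the genes compared. At 10 points 6 were higher in FOS+ and 9 in FOS- nuclei (background 16.1% and 16.6%), and at 2-fold 14 were higher in FOS- (background 27.4%, and 16.4% higher in FOS+). Within conditions the median difference was 5 and 3.18 points at the lower dilution, and 0 at 1 µM and -18.2 at 10 µM at the higher. The cause of these changes was not tested.

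For PTZ, 3 genes were higher at a TPM above 0 and at 1 count without thinning (*Ercc5*, *Tdp2*, *Xrcc1*), 2 at a count of 5 (*Xrcc1*, *Xrcc4*), 7 at 2-fold (background 13.6%), 9 at 10 points (background 16.7%) and 0 at 30 points (background 0.480%), at a TPM above 100 (1.26%) and without the 4 cells of over 10000 genes. For saline the counts were 0 with all cells, at a TPM above 100 (background 6.35%) and at 30 points (0.698%), 6 at 2-fold (background 15.4%), 9 at 10 points (background 20.3%) and 7 without the 4 cells, which moved the median to -3.85.

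Repair genes per FOS+ nucleus fell to a median of 12 at a TPM above 5, 9 at a count of 5 and 10 after thinning, per FOS- nucleus to 9 at a count of 5 and 11 after thinning, per HC nucleus to 7, 5 and 6, and per saline-treated cell to 9 after thinning.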
